A study of Sus scrofa with 8 samples.

Results

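The genes described here are the small heat shock proteins of the heart and BAG3, a co-chaperone that works with HSPB8. They were chosen by name, from a list of 10 names: CRYAB, HSPB1, HSPB2, HSPB3, HSPB6, HSPB7, HSPB8, HSPB9, HSPB11 and BAG3. Of these, 7 had a row under that name among the 18975 genes of the expression table, and 6 of the 7 passed the filter on low values that 11913 genes passed. HSPB9 did not pass it. HSPB1, HSPB2 and HSPB6 had no row under their names and were not analysed here by name.

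RNA-seq had been performed on heart tissue of male Tibetan and Yorkshire pigs aged 6 months. The groups were Tibetan pigs raised in the highlands at 3000 m (TH), Tibetan pigs raised in the lowlands at 100 m (TL), Yorkshire pigs in the highlands (YH) and Yorkshire pigs in the lowlands (YL). Each group had 2 libraries, and RNA of 4 pigs was pooled for each library, so p-values measure the spread between pools rather than between animals. Altitude and the place where the pigs were raised cannot be told apart in this design. The chamber of the heart that was sampled is not given in the sources used here.

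Small heat shock proteins are ATP-independent chaperones built around an alpha-crystallin domain. They hold partly unfolded proteins in a soluble state until other chaperones refold them or the cell degrades them. Striated muscle is rich in them, and there they bind desmin, titin, filamin and other proteins of the Z-disc, the structure that anchors the thin filaments. CRYAB (alphaB-crystallin) is best known as a chaperone of desmin, HSPB7 as a heart and muscle member that binds filamin C and titin, and HSPB8 as the partner of BAG3. BAG3 joins HSPB8 to HSP70 and directs damaged filamin to autophagy.

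Between 15686825 (TH2) and 26722609 (TH1) reads per library fell on genes. The cardiomyocyte markers (9 of 10 with a row) were above 0 in every library, and their summed FPKM (fragments mapped to a transcript, divided by its length in kilobases and scaled to 1000000 mapped fragments) was 15490.0 in YL2 and between 24850.0 and 42320.0 in the other 7 libraries. YL2 also carried kidney markers (8 of 9 with a row), with a sum of 4323 FPKM against 0.0855 to 17.0 in the other 7, and its ventricular markers (3 of 5 with a row) summed to 3298 FPKM against 5363 to 9307. The summed atrial markers (7 of 9 with a row) were 5394 to 6633 FPKM in TH, 1504 to 2548 in TL, 625 to 1046 in YH and 417 to 2630.0 in YL. Smooth muscle markers (6 of 7) summed to 339 to 370 FPKM in TH, 234 to 246 in TL, 177 to 221 in YH and 113 to 128 in YL. Endothelial markers (7 of 8) lay between 108 and 197 FPKM, and skeletal muscle markers (3 of 8) between 0.149 and 3.43 FPKM, highest in TH. The fold changes of the members and the list counts that use YL are therefore given with and without YL2. In bulk tissue, fewer cells of a type and less RNA per cell cannot be told apart.

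The members differed widely in abundance. CRYAB and HSPB7 were among the most abundant transcripts of the heart, with a mean over the 8 libraries of 2659 FPKM (SD 1957) and 1910.0 FPKM (SD 821), which placed them at ranks 48 and 63 of all 18975 genes. HSPB8 followed with a mean of 348 FPKM (SD 178, rank 242). HSPB3, a small member found mainly in muscle, had a mean of 88.4 FPKM (SD 27.7, rank 719), and BAG3 had 54.5 FPKM (SD 10.02, rank 1083). HSPB11, better known as IFT25, a subunit of the intraflagellar transport machinery, had a mean of 4.33 FPKM (SD 1.52, rank 7217). HSPB9, known from testis, had 1 read, in TL1 (0.122 FPKM), and was listed at 0 in the other 7 libraries.

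FPKM is a value per length, so these levels can be set beside each other within a library. HSPB7 was above HSPB8, HSPB8 above HSPB3, and BAG3 above HSPB11 in 8 of 8 libraries, and HSPB3 was above BAG3 in 7 of 8, with YL2 as the exception. CRYAB was above HSPB7 in 4 of 8 libraries, namely TH1, TH2, YH2 and YL1. Neither of these 2 genes was therefore above the other throughout. CRYAB was the higher one in both TH libraries and the lower one in both TL libraries.

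**Figure D1:**
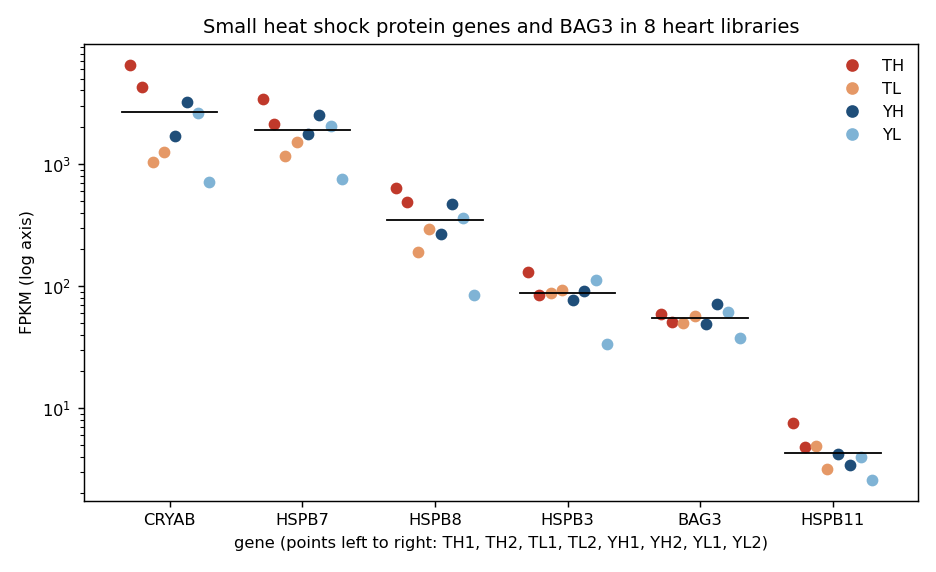
FPKM (log axis) of the 6 members that passed the filter, 1 point per library in the order TH1, TH2, TL1, TL2, YH1, YH2, YL1 and YL2, coloured by group; the horizontal line is the mean of the 8 libraries. CRYAB spans 717 to 6494 FPKM and BAG3 only 37.7 to 71.4 FPKM, and YL2 is the lowest point of all 6 genes.

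CRYAB (ENSSSCG00000015025, chromosome 9, 44428186 to 44434635 in Sscrofa10.2) varied most. Its FPKM was 6494 in TH1 and 4239 in TH2, 1041 in TL1 and 1250.1 in TL2, 1692 in YH1 and 3199.6 in YH2, and 2636 in YL1 and 717 in YL2. Both TH libraries lay above all 6 others, and the TL libraries were close to each other and below every other library except YL2. The highest value was 9.05 times the lowest, or 6.24 times without YL2. A second row, ENSSSCG00000015027, is listed without a name at exactly the same locus. It had 187 and 116 FPKM in TH1 and TH2, 99.95 and 104 in TL1 and TL2, 96.8 and 123 in YH1 and YH2, and 122 and 42.7 in YL1 and YL2. The gene that this second row stands for is not given. Whether and how reads were shared between the 2 rows was not tested, and the level of CRYAB is uncertain to that extent. Reads on CRYAB numbered 41148 to 248387 per library, so counting error is small against the spread between libraries.

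HSPB7 (ENSSSCG00000021071, on the unplaced scaffold GL892419.1, 8696 to 12256) had 3394 and 2131 FPKM in TH1 and TH2, 1161 and 1510.5 in TL1 and TL2, 1769.9 and 2514 in YH1 and YH2, and 2049.9 and 753 in YL1 and YL2. TH1 was highest and YL2 lowest, and TH2 lay below YH2. HSPB8 (ENSSSCG00000009844, chromosome 14, 35688332 to 35701411) had 635 and 486 FPKM in TH1 and TH2, 189 and 294 in TL1 and TL2, 266 and 471 in YH1 and YH2, and 358 and 85.1 in YL1 and YL2. Both TH libraries were above the other 6, but TH2 exceeded YH2 by a factor of only 1.03.

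HSPB3 (ENSSSCG00000016896, chromosome 16, 35788146 to 35788802) had 129 and 83.7 FPKM in TH1 and TH2, 87.9 and 93.5 in TL1 and TL2, 76.9 and 91.3 in YH1 and YH2, and 111 and 33.4 in YL1 and YL2. Apart from YL2 the libraries differed by a factor of at most 1.68. BAG3 (ENSSSCG00000010686, chromosome 14, 141034617 to 141058597) was the steadiest member, with 59.0 and 51.2 FPKM in TH1 and TH2, 49.7 and 57.2 in TL1 and TL2, 49.0 and 71.4 in YH1 and YH2, and 60.9 and 37.7 in YL1 and YL2. Its highest library was YH2, and without YL2 its values differed by a factor of at most 1.46. HSPB11 (ENSSSCG00000026264, chromosome 6, 146038997 to 146066626) had 7.53 and 4.83 FPKM in TH1 and TH2, 4.87 and 3.18 in TL1 and TL2, 4.21 and 3.43 in YH1 and YH2, and 3.97 and 2.58 in YL1 and YL2. It rests on 50 to 116 reads per library, with a counting error of 14.1% at the lowest count.

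Across the 6 genes, TH1 was the highest library for 5 (YH2 for BAG3), and YL2 was the lowest for 6 of 6. YL2 is the library with the kidney markers and the lowest sum of cardiomyocyte markers. TH1 had the highest sum of cardiomyocyte markers. The FPKM of all genes summed to 8559104 in TH1, the highest, and to 1563940 in YL2, the lowest. In the other libraries this sum lay between 2032070 (YH2) and 4017846 (YL1). The part of these marker levels and sums in the members' levels was not tested.

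Of HSPB6, a later table of gene names assigns the symbol to ENSSSCG00000023498, a row without a name in the expression table. That row is listed at the locus of LIN37 (chromosome 6, 40630737 to 40639501), so its reads cannot be assigned to HSPB6 alone. It had 75.2 and 90.4 FPKM in TH1 and TH2, 46.1 and 98.2 in TL1 and TL2, 109 and 138 in YH1 and YH2, and 122 and 39.3 in YL1 and YL2. Unlike CRYAB, it was lower in TH than in YH in both libraries (log2 fold change -0.57, SE 0.57, limma adjusted p = 0.641).

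The first comparison asked how the hearts of Tibetan pigs differed between the highlands and the lowlands (TH vs. TL). CRYAB, HSPB7 and HSPB8 were higher in both TH libraries than in both TL libraries, whereas HSPB3, BAG3 and HSPB11 overlapped. The mean of CRYAB was 4.68 times as high in TH (5367 against 1146 FPKM), that of HSPB8 2.32 times (560.3 against 242 FPKM) and that of HSPB7 2.07 times (2763 against 1336 FPKM). A gene was called where its log2 fold change in limma exceeded 1 in size with an adjusted p below 0.01. By this rule 0 of 6 members were called, where 0.0504% of all genes tested were. At an unadjusted p under 0.05 there was 1 member (CRYAB, higher in TH), where 11.3% of all genes passed. Without YL1 or without YL2 there were 3 (CRYAB, HSPB7 and HSPB8), where 17.1% of all genes passed in either fit, and with libraries scaled to the cardiomyocyte markers the same 3, where 3.87% did. The fit of only these 4 libraries also had those 3 (13.5% of all genes), and without TH1 or without TL1 there were 0 of 6 (8.34% and 4.75% of all genes). The 3 of 6 members with TH above TL and no overlap compare with 24.0% of all genes tested, and 0 of 6 lay below without overlap, against 24.5%.

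For CRYAB the fitted log2 fold change was 2.20 (SE 0.66, 95% interval 0.63 to 3.77, unadjusted p = 0.0131, adjusted p = 0.309). For HSPB8 it was 1.23 (SE 0.67, 95% interval -0.36 to 2.82, adjusted p = 0.536), and for HSPB7 1.02 (SE 0.54, 95% interval -0.27 to 2.31, adjusted p = 0.523). HSPB11 had 0.51 (SE 0.30, adjusted p = 0.572), HSPB3 0.20 (SE 0.53, adjusted p = 0.927) and BAG3 0.04 (SE 0.31, adjusted p = 0.976). The interval of BAG3 reached from -0.69 to 0.78. All 6 fitted values were above 0, a direction shared by 48.0% of all genes. With each library scaled to the same FPKM sum, 4 of 6 were (15.2% of all genes), with CRYAB at 1.56. The atrial and smooth muscle marker sums were also higher in TH than in TL, but not every marker was. Of the atrial markers 5 of 7 were fitted higher in TH (median log2 fold change 0.20). Of the smooth muscle markers 3 of 6 were (median -0.13), where 48.0% of all genes were. The part of these markers in the differences of the members was not tested. Per 1000 FPKM of cardiomyocyte markers, CRYAB amounted to 154 FPKM in TH1 and 171 in TH2 against 31.2 and 34.6 for TL, and the fitted difference with libraries scaled to these markers was 2.30 (adjusted p = 0.0285, above the threshold of 0.01). Without YL2, which enters only the estimate of the spread here, the adjusted p of CRYAB was 0.0966. Over all alternatives it ranged from 0.0285 to 1.0.

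The comparison of the breeds in the highlands (TH vs. YH) placed CRYAB, HSPB8 and HSPB11 higher in both TH libraries than in both YH libraries. Again 0 of 6 members were called by limma, where 0.0336% of all genes were called, and 0 reached an unadjusted p under 0.05, which 16.2% of all genes did. Without YL1, without YL2 or with libraries scaled to the cardiomyocyte markers, 1 of 6 did (CRYAB, with limma adjusted p of 0.172, 0.174 and 0.538), against 22.7%, 22.7% and 5.04% of all genes. The 3 of 6 members with TH above YH and no overlap compare with 25.2% of all genes, and 0 of 6 lay below without overlap, against 27.3%. The fitted value was above 0 for 5 of 6 members and 47.5% of all genes. The mean of CRYAB was 2.19 times as high in TH as in YH (log2 fold change 1.17, SE 0.66, 95% interval -0.40 to 2.75, adjusted p = 0.423). HSPB11 had a log2 fold change of 0.56 (SE 0.30, adjusted p = 0.410) and HSPB8 of 0.65 (SE 0.67, adjusted p = 0.654). HSPB7 (0.35, SE 0.54) and HSPB3 (0.31, SE 0.53) overlapped between the groups, and BAG3 was fitted at -0.11 (SE 0.31). With each library scaled to the same FPKM sum, the values of HSPB7, HSPB8, HSPB3 and HSPB11 lay below 0, at -0.64, -0.33, -0.65 and -0.17, and CRYAB at 0.18, while the median of all genes moved to -0.50. Without TH1, HSPB7 was at 0.015, and with 1 library left out at a time HSPB8 ranged from 0.24 to 1.06 and HSPB11 from 0.28 to 0.83. The atrial marker sums (5394 to 6633 FPKM against 625 to 1046) and smooth muscle marker sums (339 to 370 against 177 to 221) were also higher in TH than in YH. Of the atrial markers 6 of 7 were fitted higher in TH (median log2 fold change 0.85). Of the smooth muscle markers 3 of 6 were (median 0.23), where 47.5% of all genes were. The part of these markers in the differences of the members was not tested. The TH and TL comparison and this one share the TH libraries.

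**Figure D2:**
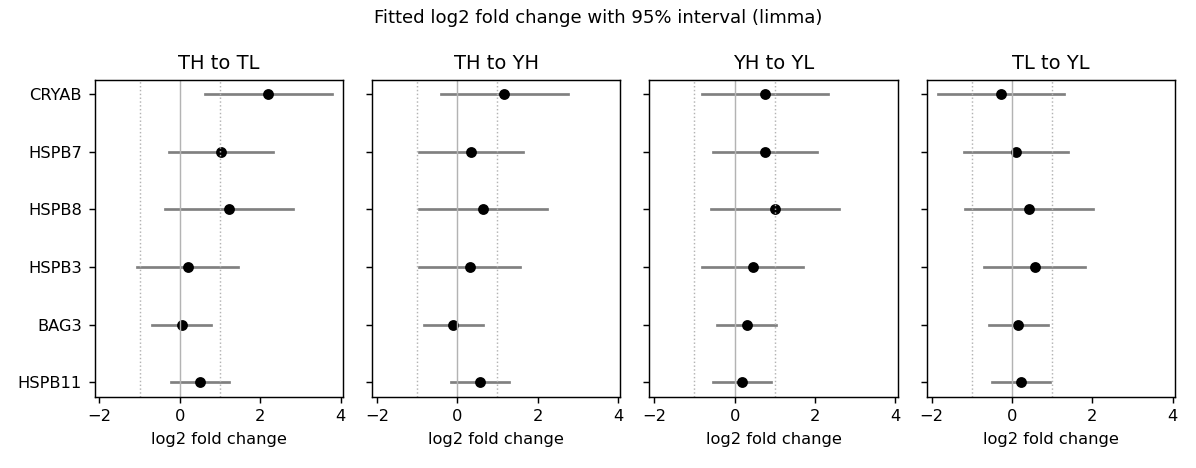
Fitted log2 fold change (limma, log2(FPKM + 1) scale) of the 6 members in 4 comparisons; points are estimates, bars 95% intervals, and dotted lines mark a change of 1 in size. The interval of CRYAB in TH to TL (0.63 to 3.77) lies above 0, and every other interval includes 0.

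In the Yorkshire pigs (YH vs. YL), the groups overlapped for all 6 members (0 of 6 without overlap, where 21.9% of all genes did not overlap with YH higher and 14.4% with YH lower). None was called by limma, where 0.0% of all genes were, and 0 had an unadjusted p under 0.05, where 5.97% of all genes had. Without YL1 there were 4 of 6 (CRYAB, HSPB7, HSPB8 and HSPB3, higher in YH), against 25.3% of all genes. The fitted value was above 0 for 6 of 6 members and 54.0% of all genes, for 4 of 6 with libraries scaled to the cardiomyocyte markers (23.5%) and for 1 of 6 without YL2 (56.9%). The log2 fold change was 0.76 (SE 0.66, adjusted p = 0.809) for CRYAB, 0.76 (SE 0.54) for HSPB7, 1.01 (SE 0.67, adjusted p = 0.784) for HSPB8, 0.45 (SE 0.53) for HSPB3, 0.30 (SE 0.31) for BAG3 and 0.19 (SE 0.30) for HSPB11. These values rested on YL2. Without it, CRYAB was at -0.18, HSPB7 at 0.04, HSPB8 at -0.02, HSPB3 at -0.40, BAG3 at -0.04 and HSPB11 at -0.05.

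The comparison of the breeds in the lowlands (TL vs. YL) likewise had 0 of 6 members called by limma, with 0.00839% of all genes called, and 0 at an unadjusted p under 0.05, where 8.94% of all genes were. Without YL1, HSPB8 and HSPB3 were higher in TL at that p (2 of 6, against 25.5% of all genes). The fitted value was above 0 for 5 of 6 members and 51.6% of all genes, but for 2 of 6 with FPKM sum scaling (22.7% of all genes), 1 of 6 with libraries scaled to the cardiomyocyte markers (16.9%) and 0 of 6 without YL2 (55.6%). The groups overlapped for 6 of 6 members, where 23.8% of all genes did not overlap with TL higher and 17.8% with TL lower. CRYAB was fitted at -0.27 (SE 0.66, adjusted p = 0.937), HSPB7 at 0.09 (SE 0.54), HSPB8 at 0.43 (SE 0.67), HSPB3 at 0.56 (SE 0.53), BAG3 at 0.15 (SE 0.31) and HSPB11 at 0.23 (SE 0.30). Without YL2, CRYAB was at -1.21, HSPB7 at -0.63, HSPB8 at -0.60, HSPB3 at -0.29, BAG3 at -0.19 and HSPB11 at -0.0050.

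Whether the altitude difference of the Tibetan pigs differed from that of the Yorkshire pigs was tested as an interaction. For CRYAB it was 1.44 on the log2 scale (SE 0.94, 95% interval -0.78 to 3.67, limma adjusted p = 0.585), and none of the 6 members was called (0 of 6, where 0.0336% of all genes were, and 0 at an unadjusted p under 0.05, where 10.9% of all genes were). Without YL2 it was 2.38 and without YL1 0.50, so this value depends on which YL pool is used. With libraries scaled to the cardiomyocyte markers the interaction of CRYAB was 1.91 (limma unadjusted p = 0.00245, adjusted p = 0.749). With FPKM sum scaling it was 0.79 (limma unadjusted p = 0.374). The other 5 members lay between -0.26 (BAG3) and 0.32 (HSPB11). Without YL2 they lay between 0.084 (BAG3) and 1.25 (HSPB8), with HSPB7 at 0.98 and with HSPB3 and BAG3 changed in sign, and without YL1 between -1.11 (HSPB3, unadjusted p = 0.0341) and 0.086 (HSPB11).

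Ratios within a library do not depend on how libraries are scaled to each other. CRYAB to HSPB7 was 1.91 and 1.99 in TH and 0.828 to 1.29 in the other 6 libraries. HSPB8 to BAG3 was 10.8 and 9.49 in TH and 2.26 to 6.59 in the others, with YL2 lowest. CRYAB to the row at its locus was 34.8 and 36.6 in TH and 10.4 to 26.0 in the others. In each of these ratios the TH libraries stood above all other libraries, YL2 included. HSPB3 to HSPB7 was 0.0757 in TL1 and 0.0619 in TL2, against 0.0380 and 0.0393 for TH and 0.0363 to 0.0542 for the Yorkshire libraries, so that both TL libraries were above all others. Per 1000 FPKM of cardiomyocyte markers, HSPB3 stayed between 2.16 and 3.37 FPKM over all 8 libraries and BAG3 between 1.39 and 2.43, whereas CRYAB ranged from 31.2 to 171. YL2 was within the range of the other libraries on this scale for CRYAB (46.3) and HSPB7 (48.6), lowest for HSPB8 (5.49) and HSPB3 (2.16) and highest for BAG3 (2.43). These ratios were chosen after their values were seen and are a description, with no test.

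**Figure D3:**
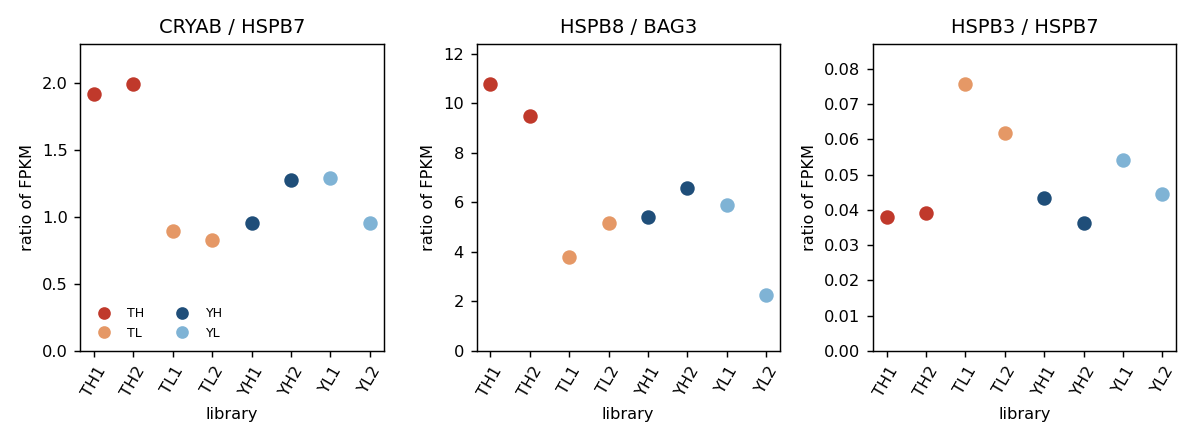
Ratios of FPKM within each of the 8 libraries, 1 point per library, coloured by group, with axes starting at 0. CRYAB to HSPB7 is 1.91 and 1.99 in TH and at most 1.29 elsewhere, HSPB8 to BAG3 is at least 9.49 in TH and at most 6.59 elsewhere, and HSPB3 to HSPB7 is highest in TL.

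CRYAB, HSPB7 and HSPB8 followed each other over the 8 libraries. On the log2(FPKM + 1) scale, Pearson's r was 0.950 for CRYAB and HSPB7, 0.933 for CRYAB and HSPB8 and 0.975 for HSPB7 and HSPB8, and 0.947, 0.961 and 0.953 without YL2. For CRYAB and BAG3 it was 0.643, or 0.390 without YL2. BAG3 and HSPB11 had 0.280, and -0.258 without YL2. These are descriptions over libraries that share their group, depth and cell makeup.

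The genes most like CRYAB were sought among the 4156 tested genes outside the members with a mean of at least 10 FPKM, by Pearson's r over the 8 libraries. They were HMGA1, a chromatin-binding protein (0.984), CSRP3, the muscle LIM protein of the Z-disc (0.981), PTP4A2, a phosphatase (0.979), RFC5, a subunit of the clamp loader of DNA replication (0.979), and POLR3D, a subunit of RNA polymerase III (0.978). CSRP3 ranked the libraries in the same order as CRYAB (Spearman's rho 1.0) and had a similar span, with 7832 and 3786 FPKM in TH1 and TH2, 954 and 1274 in TL1 and TL2, 1493 and 3689 in YH1 and YH2, and 2074 and 806 in YL1 and YL2. RFC5 spanned only a factor of 1.98, against 9.71 for CSRP3.

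**Figure D4:**
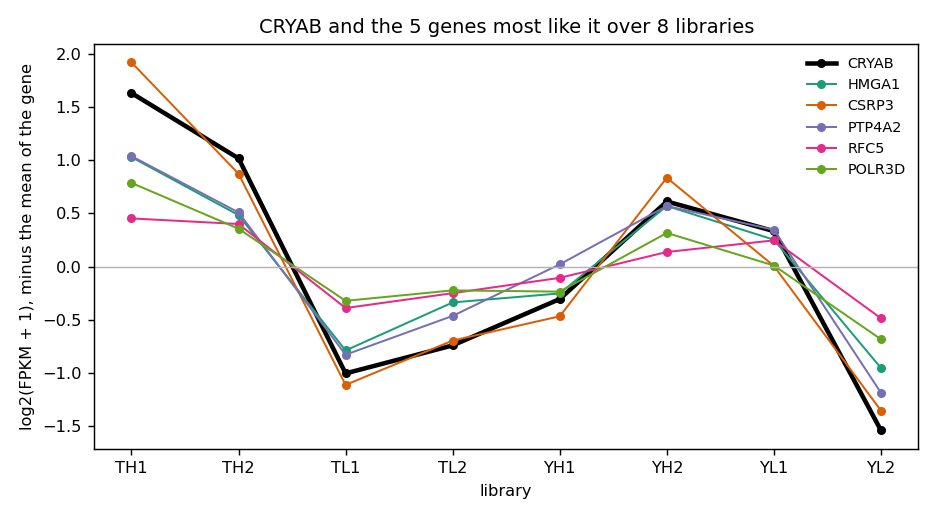
log2(FPKM + 1) of CRYAB and of the 5 genes with the highest Pearson's r to it, each minus its own mean, in the 8 libraries; lines only join the points of a gene. All 6 genes are highest in TH1 and lowest in YL2, with CSRP3 and CRYAB spanning the widest range and RFC5 the narrowest.

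The other genes of the pathways were described by 6 lists with 68 genes, of which 7 had no row. In the 24 pairs of list and comparison, 0 genes were called by limma, and 15 pairs held at least 1 gene with an unadjusted p under 0.05.

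Among the heat shock factors and their chaperone targets, 15 of 18 genes had a row. In both TH vs. YH and TH vs. TL, 13 of 15 were fitted higher in TH, where 47.5% and 48.0% of all genes were. The list's median log2 fold change was 0.37 in TH vs. YH and 0.49 in TH vs. TL, against -0.03 and -0.02 for all genes. FPKM sum scaling moved the medians of all genes to -0.50 and -0.27. With it 1 of 15 list genes had a value above 0 in TH vs. YH (median -0.46) and 4 of 15 in TH vs. TL (median -0.11), as had 7.7% and 15.2% of all genes, and 9 and 10 of 15 lay above the median of all genes. In TL vs. YL 4 of 15 and in YH vs. YL 7 of 15 were above 0, where 51.6% and 54.0% of all genes were. Without YL2 1 of 15 and 2 of 15 were (55.6% and 56.9% of all genes). Without YL1 11 of 15 were in each (51.1% and 52.4% of all genes), with medians of 0.24 and 0.26, so the direction depends on which YL pool is used. An unadjusted p under 0.05 was reached by 1 of 15 genes in TH vs. YH, where 16.2% of all genes passed, and by 3 of 15 in TH vs. TL, where 11.3% did, all higher in TH. Without YL1 or without YL2 these counts were 5 and 6 of 15, where 22.7% and 17.1% of all genes passed, and with FPKM sum scaling none was higher in TH at that p (0 of 15 in both; 1 was lower in TH vs. YH). HSPE1, the mitochondrial co-chaperonin, had 851 and 483 FPKM in TH against 309 to 452 in the other 6 libraries (TH vs. TL log2 fold change 0.96, adjusted p = 0.337). HSPD1, its chaperonin partner, had 0.49 in TH vs. TL (adjusted p = 0.516). HSP90AA1, the inducible HSP90, had 673 FPKM in TH1 and 491 in TH2, above 303 and 314 in the TL libraries (0.90, adjusted p = 0.480). HSP90AB1, listed as HSPCB, had 0.54 (adjusted p = 0.537).

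The Z-disc clients were fitted in both directions. Of 13 genes, 9 were fitted higher in TH than in TL (median 0.59), where 48.0% of all genes were. At an unadjusted p under 0.05, 4 were higher and 2 lower, where 11.3% of all genes passed in either direction. With FPKM sum scaling 6 of 13 were higher in TH (median -0.033), against 15.2% of all genes (median -0.27). DES, which encodes desmin, had 9125 and 5761 FPKM in TH1 and TH2, 1295 and 1728 in TL1 and TL2, 1697 and 2624 in YH1 and YH2, and 3510 and 920 in YL1 and YL2. Its TH vs. TL log2 fold change was 2.28 (SE 0.66, adjusted p = 0.301), near that of CRYAB, and CSRP3 had 2.30 (SE 0.66, adjusted p = 0.295). ACTC1, cardiac actin, was lower in both TH libraries, with 2717 FPKM in TH1 and 2039 in TH2 against 4818 and 5018 for TL (log2 fold change -1.06, SE 0.35, adjusted p = 0.333). TCAP, the titin cap, had 0.21 (adjusted p = 0.927). In TH vs. YH, 8 of 13 were higher in TH (median 0.32; 47.5% of all genes), and 6 of 13 with FPKM sum scaling (median -0.64; 7.7% of all genes, whose median was -0.50). In TL vs. YL 9 of 13 were higher in TL (51.6% of all genes) and in YH vs. YL 11 of 13 in YH (54.0%). Without YL2 these were 4 of 13 (55.6%) and 8 of 13 (56.9%), and the YH vs. YL values of DES and TCAP went from 0.23 and 0.39 to -0.73 and -0.42. Without YL1 the counts were 13 of 13 (51.1% of all genes, list median 1.12) and 12 of 13 (52.4%, list median 1.45).

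In the list of autophagy assisted by BAG3 and HSPB8, 8 of 10 genes were tested, and their median log2 fold change was -0.38 in TH vs. YH and -0.08 in TH vs. TL, against -0.03 and -0.02 for all genes. With FPKM sum scaling these medians were -1.31 and -0.60, against -0.50 and -0.27 for all genes. FLNC, the filamin that BAG3 and HSPB8 act on, had 498 and 462 FPKM in TH1 and TH2, 120.0 and 287 in TL1 and TL2, 248 and 702 in YH1 and YH2, and 208 and 70.6 in YL1 and YL2 (TH vs. TL 1.36, SE 0.71, adjusted p = 0.515). Its YH vs. YL value was larger, at 1.77 (SE 0.71, unadjusted p = 0.0416, limma adjusted p = 0.784), and 0.999 without YL2 (limma adjusted p = 0.917). SQSTM1, an autophagy receptor, had 125 FPKM in TH1 and 114 in TH2, below 155 and 160.3 for the YH libraries (-0.39, SE 0.21, adjusted p = 0.404). The TH vs. YH values of MAP1LC3B, a protein of the autophagosome membrane, and of STUB1, a ubiquitin ligase that works with chaperones, were -0.37 and 0.15 (adjusted p = 0.4 and 0.746).

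Of the other BAG co-chaperones, 4 of 5 were tested. BAG1 had 59.4 and 51.4 FPKM in TH and 21.7 to 32.5 in the other 6 libraries, a pattern that BAG3 did not have. Its log2 fold change was 1.03 in TH vs. YH (SE 0.26, unadjusted p = 0.00529, limma adjusted p = 0.159) and 1.17 in TH vs. TL (SE 0.26, unadjusted p = 0.00275, limma adjusted p = 0.213). BAG2, BAG5 and BAG6 had -0.52, 0.09 and 0.51 in TH vs. TL, with adjusted p of 0.634, 0.930 and 0.517.

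The list of kinases around the small heat shock proteins holds p38 and MAPKAPK kinases, kinases that activate p38, PRKD1 and PRKACA (a catalytic subunit of protein kinase A). Of these, 8 of 11 genes had a row and 0 of 8 reached an unadjusted p under 0.05 in any comparison, a p reached by 16.2% of all genes in TH vs. YH, 11.3% in TH vs. TL, 8.94% in TL vs. YL and 5.97% in YH vs. YL. Without YL2, 1 of 8 did in each of the first 3 (22.7%, 17.1% and 9.72% of all genes). Without YL1, 1, 1, 4 and 3 of 8 did in the order given (22.7%, 17.1%, 25.5% and 25.3% of all genes). MAPKAPK2 had the highest TH vs. TL value of the 4 most abundant genes of the list (0.66, SE 0.39, adjusted p = 0.572). PRKACA, MAPK12 and MAPKAPK3 had -0.15, -0.08 and 0.25.

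The immediate early genes are transcribed within minutes of a stimulus. Of 11 tested, 9 had an unadjusted p under 0.05 with the Tibetan libraries higher in TH vs. YH (median 1.96) and 9 in TL vs. YL (median 1.40), with 0 called, where 16.2% and 8.94% of all genes passed that p in either direction. With FPKM sum scaling the medians were 0.96 and 0.97, with 2 and 4 of 11 higher at that p (7.17% and 4.99% of all genes in either direction), and with libraries scaled to the cardiomyocyte markers 7 and 5 of 11 were (5.04% and 3.33% of all genes). Without YL2 the TL vs. YL median was 1.18, with 8 of 11 at that p (9.72% of all genes). In TH vs. TL the median was 0.54, with 7 of 11 above 0 (48.0% of all genes) and with 1 higher and 2 lower at that p (11.3% of all genes). It was 0.12 with scaled reads (6 of 11 above 0, against 49.3% of all genes) and -0.049 with FPKM sum scaling (4 of 11, against 15.2%), where the median of all genes was -0.27. NR4A1, a nuclear receptor, had 47.3 to 266 FPKM over the 4 Tibetan libraries against 10.3 to 13.6 over the 4 Yorkshire ones. DUSP1 had a TH vs. YH value of 1.96 (adjusted p = 0.0974), IER3 of 0.98 and JUN, listed as C-JUN, of -0.05. The part of this list in the members' levels was not tested.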

How the data were processed

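The labels and methods describe heart RNA extracted with Trizol, pooled and made into TruSeq libraries. Reads were aligned to Sscrofa10.2 with TopHat (TopHat2 2.0.9 and Bowtie 0.12.5 in the submitters' processing notes), and the authors computed FPKM with Cufflinks and tested genes with DESeq 1.10.1. The deposited table lists FPKM and a read signal, which the authors scaled by 1 factor per library. That signal, divided by its most common low value, gave the reads stated here (99.7% to 99.8% of values under 100 reads were whole within 0.01). The 4 deposited group tables held 0 values that differed from the full table. The descriptions of YL1 and YL2 name the TL table, but their titles, breed and columns say YL, which was followed.

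All 8 libraries were fitted with limma 3.58.1 in R 4.3.3 on log2(FPKM + 1), with a trend on the mean. The test covered the 11913 genes that reached 1 FPKM in 2 libraries or more, and p-values were adjusted over them by the Benjamini-Hochberg method. Calls needed a log2 fold change beyond 1 in either direction and an adjusted p below 0.01. A fold change on this scale understates that of low genes such as HSPB11. An exact permutation test of 2 against 2 libraries cannot go below p = 0.333 (two-sided), so none is given. The fit was also run on simulated data with independent errors and no library like YL2. That run does not show how the fit behaves on these libraries.

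Named genes were the members, at most 4 of each pathway list by mean FPKM and the 5 genes most like CRYAB; markers were given by list. BAG3, the other members and all lists were chosen with earlier results of these data known. Groups without overlap, ratios and correlations are descriptions. Another 8 columns of group means and ratios were not used. Protein ratios, sequences and promoters were not used here. Python 3.11.15, numpy 2.4.6, pandas 2.3.3 and matplotlib 3.10.9 made the tables and figures.

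The alternatives were another pseudocount (0.1), no filter, a mean of at least 10 FPKM, median-ratio and FPKM sum scaling, no trend, a replicate term, only the 4 libraries compared, other p thresholds and each library left out in turn. Scaled reads in place of FPKM and scaling to the cardiomyocyte markers were added after seeing the data.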

Additional observations from a re-analysis of the deposited data

How the results depend on the processing

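In every setting run, 0 members were called in each of the 4 comparisons and in the interaction, also at an adjusted p under 0.05 or an unadjusted p under 0.01 in the main fit. Of 445 alternative log2 fold changes (the 4 comparisons of each member and the interaction of CRYAB alone), 34 changed sign. Of 84 alternative interaction values of the other 5 members, 14 changed sign, among them those of HSPB3 and BAG3 without YL2 (0.60 and 0.084), those of HSPB7 and HSPB8 without YL1 (-0.46 and -0.81), and those of HSPB7, HSPB8 and HSPB11 with FPKM sum scaling (-0.40, -0.43 and -0.14). With FPKM sum scaling, TH vs. YH gave HSPB7 -0.64, HSPB8 -0.33, HSPB3 -0.65 and HSPB11 -0.17, TL vs. YL gave HSPB7 -0.24, BAG3 -0.17 and HSPB11 -0.029, and TH vs. TL gave HSPB3 -0.42 and BAG3 -0.54. That scaling moved the median of all genes to -0.50, -0.23 and -0.27 in these comparisons. Median-ratio scaling gave BAG3 -0.065 in TH vs. TL (median of all genes -0.10). Scaling to the cardiomyocyte markers gave HSPB7 -0.39, HSPB8 -0.053, BAG3 -0.33 and HSPB11 -0.15 in TL vs. YL (median of all genes -0.40), and BAG3 -0.060 and HSPB11 -0.098 in YH vs. YL (median -0.29).

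With 1 library left out at a time, a lone library of a group was taken to vary like the other groups. In TL vs. YL, CRYAB ranged from -1.21 to 0.67, HSPB7 from -0.63 to 0.81, HSPB8 from -0.60 to 1.46, HSPB3 from -0.29 to 1.41, BAG3 from -0.19 to 0.49 and HSPB11 from -0.014 to 0.48. In YH vs. YL, CRYAB ranged from -0.18 to 1.70, HSPB8 from -0.016 to 2.04, HSPB3 from -0.40 to 1.30, BAG3 from -0.042 to 0.64 and HSPB11 from -0.050 to 0.42. In TH vs. YH, HSPB3 ranged from -0.0022 to 0.62, BAG3 from -0.37 to 0.16 and HSPB7 from 0.015 to 0.69, and in TH vs. TL HSPB3 from -0.11 to 0.50 and BAG3 from -0.058 to 0.14. CRYAB kept its sign in TH vs. TL (1.89 to 2.51), in TH vs. YH (0.71 to 1.63) and in the interaction (0.50 to 2.38). The lowest adjusted p were those of HSPB3 in TL vs. YL (0.0452) and HSPB8 in YH vs. YL (0.0471), both without YL1.

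Over all genes, TH vs. TL had 6 calls, TH vs. YH 4, TL vs. YL 1 and YH vs. YL 0. In that order the calls were 30, 38, 97 and 69 with FPKM sum scaling, 13, 6, 305 and 305 without YL1, 13, 6, 3 and 0 without YL2, and 0 in each with scaled reads. The interaction had 4 calls, 40 with FPKM sum scaling, 0 with scaled reads, 152 without YL1 and 7 without YL2. Only the 4 libraries compared gave 11 calls in TH vs. TL and 2 in TL vs. YL, and leaving out a TH or YH library gave 2 in TL vs. YL. A pseudocount of 0.1 and the fit without YH2 gave 1 call in YH vs. YL. The cause was not tested. The replicate numbers did not pair the libraries (correlations of same-numbered deviations from -0.084 to 0.118 over 6 pairs of groups). With a replicate block, 0 members were called, CRYAB kept 2.20 in TH vs. TL (adjusted p = 0.364), and HSPB11 had an unadjusted p under 0.05 in TH vs. YH and TH vs. TL (limma adjusted p = 0.28 and 0.437). Tests on counts were not run, since a few read values were not whole. HSPB11, at 50 to 116 reads, is the most limited by depth of the 6 members tested.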
